A study of Mus musculus with 12 samples.

Results

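The AP-1 genes described here are Fos, Fosb, Fosl1, Fosl2, Jun, Junb, Jund and Atf3. They were chosen by gene symbol, and all 8 were listed in each of the 12 libraries, among 18876 genes listed in any library. AP-1 is a transcription factor made of a pair of proteins joined through a leucine zipper, next to the basic region that holds DNA. FOS proteins cannot pair with themselves and need a JUN partner, JUN proteins pair with FOS, with each other or with ATF proteins, and ATF3 is a stress-induced member of the ATF branch that pairs with JUN proteins or with itself. Fos, Fosb, Jun, Junb and Atf3 are textbook immediate early genes, which cells transcribe within minutes of a stimulus without making new protein. Jund, by contrast, is commonly present in resting cells.

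RNA-seq was made from primary oligodendrocyte progenitor cells of wild-type mice, the brain glia that give rise to myelinating oligodendrocytes. The 4 groups of 3 libraries each were hemin at 50 µM with interleukin-10 (IL-10) at 10 ng/mL and stattic at 2.5 µM, hemin at 50 µM with IL-10 at 10 ng/mL, hemin at 50 µM alone, and the DMSO vehicle, all for 12 h. Hemin is heme with its iron oxidised, IL-10 an anti-inflammatory cytokine whose receptor activates the transcription factor STAT3, and stattic a small-molecule inhibitor of STAT3. Both groups with IL-10 also held hemin, and no group held IL-10 or stattic without hemin. Whether libraries of a group stem from different cultures or animals is not labelled, so the spread behind each p-value may be technical. There is a single time point, well after the minutes in which immediate early genes first respond.

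Library totals were 9404448 to 10266653 expected counts. Among progenitor markers, summed levels in CPM (counts scaled to library size) were 1751 to 2544 in hemin and 4645 to 6587 in vehicle. None of the 8 markers was at 0 in any library, but neither was any listed astrocyte or neuron marker. Astrocyte markers, which the cell type label does not cover, were also high, at 1929 to 2889 CPM in hemin and 2251 to 6280 CPM in vehicle. Gfap, a defining marker, averaged 303 ± 319 CPM (SD) in hemin and 1581 ± 1353 CPM in vehicle. This difference did not pass the edgeR test described below (adjusted p = 0.259). In bulk RNA, fewer cells of a type and less RNA per cell cannot be told apart. The counts of 2 libraries leaned towards short transcripts: of 5 groups of genes by transcript length, the shortest had a median log2 difference to the vehicle mean of 1.13 and the longest of -0.86 in stattic replicate 3, with 0.47 and -0.46 in hemin replicate 1, against -0.05 to 0.06 for the shortest in single vehicle libraries. Member results without these 2 libraries, or with a correction for length, are given where the call, the direction or the fold differs by over 1.5 times.

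Fos, Fosb, Jun, Junb and Atf3 are classical immediate early genes, and Jun is also the JUN gene with the highest level in every group. The stretches of 250 bases before their annotated starts are therefore printed. They come from RefSeq (GRCm38.p6), run 5′ to 3′ on the gene's strand and end at the base before the start. The Fos stretch lies at chr12:85473640-85473889 (plus strand), Fosb at chr7:19310046-19310295 (minus), Jun at chr4:95052223-95052472 (minus), Junb at chr8:84978749-84978998 (minus) and Atf3 at chr1:191183334-191183583 (minus). Capitals mark TGACG or its reverse complement CGTCA, the short core of the cyclic AMP response element to which CREB and ATF proteins bind, and, in Jun, the 8-letter element of the type TGACNTCA that JUN and ATF2 pairs are known to bind.
Fos: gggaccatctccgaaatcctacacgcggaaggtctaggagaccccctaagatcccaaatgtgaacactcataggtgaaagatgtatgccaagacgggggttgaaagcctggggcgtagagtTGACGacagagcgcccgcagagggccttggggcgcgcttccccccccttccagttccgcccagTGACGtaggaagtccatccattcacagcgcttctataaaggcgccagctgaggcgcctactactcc
Fosb: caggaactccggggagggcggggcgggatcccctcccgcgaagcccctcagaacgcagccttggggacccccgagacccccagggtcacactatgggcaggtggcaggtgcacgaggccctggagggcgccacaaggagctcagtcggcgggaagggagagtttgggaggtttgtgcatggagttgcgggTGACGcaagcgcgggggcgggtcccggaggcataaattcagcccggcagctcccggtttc
Jun: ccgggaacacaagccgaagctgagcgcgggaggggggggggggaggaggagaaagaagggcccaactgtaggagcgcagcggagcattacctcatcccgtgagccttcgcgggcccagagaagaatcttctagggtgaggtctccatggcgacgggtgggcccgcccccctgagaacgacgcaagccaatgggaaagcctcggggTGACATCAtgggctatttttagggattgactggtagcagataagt
Junb: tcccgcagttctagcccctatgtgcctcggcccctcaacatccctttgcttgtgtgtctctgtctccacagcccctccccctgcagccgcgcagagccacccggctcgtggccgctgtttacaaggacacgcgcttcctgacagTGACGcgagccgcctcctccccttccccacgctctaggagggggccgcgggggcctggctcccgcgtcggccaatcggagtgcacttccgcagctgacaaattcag
Atf3: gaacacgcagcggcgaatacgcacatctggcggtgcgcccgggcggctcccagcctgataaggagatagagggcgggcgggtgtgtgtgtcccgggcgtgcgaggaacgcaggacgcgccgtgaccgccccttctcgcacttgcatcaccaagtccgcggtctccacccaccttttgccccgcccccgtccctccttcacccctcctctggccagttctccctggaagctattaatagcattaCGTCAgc

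RefSeq promoters were matched for 7 of the 8 members. TGACG, searched on both strands, was present before the starts of Fos, Fosb, Junb and Atf3, 4 of 7, while 17.8% of 32851 promoters of this length held it. Fos held it at -129 to -125 and at -66 to -62, Junb at -106 to -102, Fosb at -60 to -56 and Atf3 on the other strand at -7 to -3, counted back from the start. The Jun promoter was the only member promoter with TGACNTCA on either strand, at -45 to -38 with the letters TGACATCA, against 7.49% of all promoters; this motif overlaps with the full cyclic AMP element TGACGTCA, which no member held and 1.55% of all did. GAANNTTC, the core of the heat shock element, was present in Jun at -128 to -121 and in Fosl2 at -244 to -237, and in 6.69% of all. The AP-1 element itself, TGANTCA, was in no member promoter and in 6.75% of all; likewise absent were TTCNNNGAA, the STAT letters (7.02% of all), TGACNNNGC, the letters of NRF2 and BACH1 sites (10.2%), and the CArG box of serum response factor (1.47%). The serum response element of Fos is known to lie further upstream than this window, and no match says only that these letters are not in it. The guanine and cytosine content was 47.6% before Jund and 58.4% to 68.8% before the other 6.

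The question of the hemin and vehicle comparison is what heme exposure does to these cells, as after bleeding into the brain. Of the 8 members, 7 rose with hemin and Jund was higher without passing the test. In the quasi-likelihood test of edgeR, with p-values adjusted by Benjamini-Hochberg over 13967 genes, 20.9% of all tested genes passed an adjusted p of 0.05 and 11.7% passed it as higher. The median log2 fold change of the 8 members was 4.75, against 0.03 over all tested genes. Called rises of at least 4-fold were found for 6 members (not Jun or Jund) and for 6.36% of tested genes. For all 8 members the hemin libraries lay above the vehicle libraries without overlap, as they did for 25.6% of tested genes.

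Fos, the founding FOS gene and a partner for every JUN protein, had 237, 377 and 503 CPM in hemin replicates 1, 2 and 3, against 14.2, 16.8 and 11.9 CPM in vehicle. The lowest hemin library was thus far above the highest vehicle library. Fos rose 26-fold (95% confidence interval, CI, 15.2 to 44.6). Its log2 fold change was 4.70 (SE 0.36, edgeR quasi-likelihood adjusted p = 2.87e-05).

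Fosb encodes a FOS protein that in neurons also gives the long-lived form ΔFosB. It had 44.0, 70.2 and 45.4 CPM in hemin and 0.371, 0.274 and 0.190 CPM in vehicle. The vehicle values rest on 4, 3 and 2 reads, so the fold is imprecise: the log2 fold change was 7.51 (SE 0.47, CI 6.50 to 8.53, edgeR adjusted p = 4.73e-06). By log2 fold change Fosb ranked 34th and Atf3 36th from the top of 13967 tested genes.

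Fosl1 encodes FRA-1, a FOS protein that lacks the strong activation domain of FOS. Its counts were 224, 155 and 46.2 CPM in hemin and 1.21, 6.03 and 1.33 CPM in vehicle. The groups were apart, but each held a library that differed several-fold from the others: hemin replicate 3 was low and vehicle replicate 2 high. The log2 fold change was 5.62 (SE 0.91, CI 3.64 to 7.60; edgeR adjusted p = 0.00226), the widest interval of the 8 members, and without vehicle replicate 2 it was 6.79. Fosl1 overlaps Ccdc85b on the opposite strand over 2767 of its 8400 bases in the gene annotation. Ccdc85b had 171, 113 and 59.4 CPM in hemin and 18.7, 29.4 and 26.1 CPM in vehicle and also rose (log2 fold change 2.21, SE 0.52, edgeR adjusted p = 0.0124). The libraries were made with dUTP in the second strand, but no source says that reads were counted by strand, so reads from the shared stretch cannot be assigned to either gene. The 2 genes differed in level and in size of change, and how much of their counts is shared was not tested.

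Fosl2 encodes FRA-2, the other FOS protein without the strong activation domain. Fosl2 had 125, 109 and 137 CPM in hemin, against 11.1, 33.4 and 10.1 CPM in vehicle. Vehicle replicate 2 stood above the other 2 vehicle libraries here as well. Fosl2 rose by a log2 fold change of 2.76 (SE 0.41, edgeR adjusted p = 0.00152), and without vehicle replicate 2 the value was 3.54.

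Jun, the JUN protein with strong activity on AP-1 sites and the main target of the JNK kinases, was already abundant in vehicle. It had 470, 586 and 492 CPM in hemin and 95.9, 198 and 115 CPM in vehicle. Its log2 fold change of 1.92 (SE 0.31, edgeR adjusted p = 0.00206), or 3.79-fold, was the smallest of the 7 that passed.

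Junb encodes a JUN protein that can oppose JUN in cell growth. Its levels were 125, 150 and 158 CPM in hemin, against 6.77, 4.84 and 3.90 CPM in vehicle. The SD was 11.8% of the mean in hemin and 28.3% in vehicle. The log2 fold change of 4.80 (SE 0.29, edgeR adjusted p = 4.56e-06) had a smaller SE than the other 6 members that passed. Junb overlaps Prdx2 on the opposite strand over 351 of 4235 bases. Prdx2, a peroxiredoxin, had 374, 303 and 294 CPM in hemin and 291, 268 and 281 CPM in vehicle (log2 fold change 0.21, SE 0.34, edgeR adjusted p = 0.693).

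Jund, which encodes the JUN protein typical of resting cells, had 94.2, 93.4 and 82.2 CPM in hemin and 56.9, 54.9 and 64.7 CPM in vehicle. The libraries did not overlap, but the difference of 0.61 log2 units (SE 0.23, CI 0.12 to 1.10) had an edgeR adjusted p of 0.0734. The call depended on the fit. The edgeR adjusted p was 0.0143 with only hemin and vehicle libraries fitted, 0.0203 without stattic replicate 3 and 0.0425 without both short-leaning libraries. With a length correction it was 0.0464 (0.0411 with the replicate block added), and in DESeq2 it was 0.0387. In the other alternatives Jund did not pass. Without vehicle replicates 1, 2 and 3 in turn, the edgeR adjusted p was 0.180, 0.186 and 0.120. Without hemin replicates 1, 2 and 3 in turn, it was 0.144, 0.171 and 0.0976.

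Atf3, whose protein represses or activates depending on its partner and is a common marker of cell stress and of injured neurons, had 223, 377 and 194 CPM in hemin. In vehicle it had 2.04, 1.74 and 0.667 CPM, from 22, 19 and 7 reads. The log2 fold change was 7.46 (SE 0.66, CI 6.03 to 8.90, edgeR adjusted p = 5.62e-05).

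**Figure D1:**
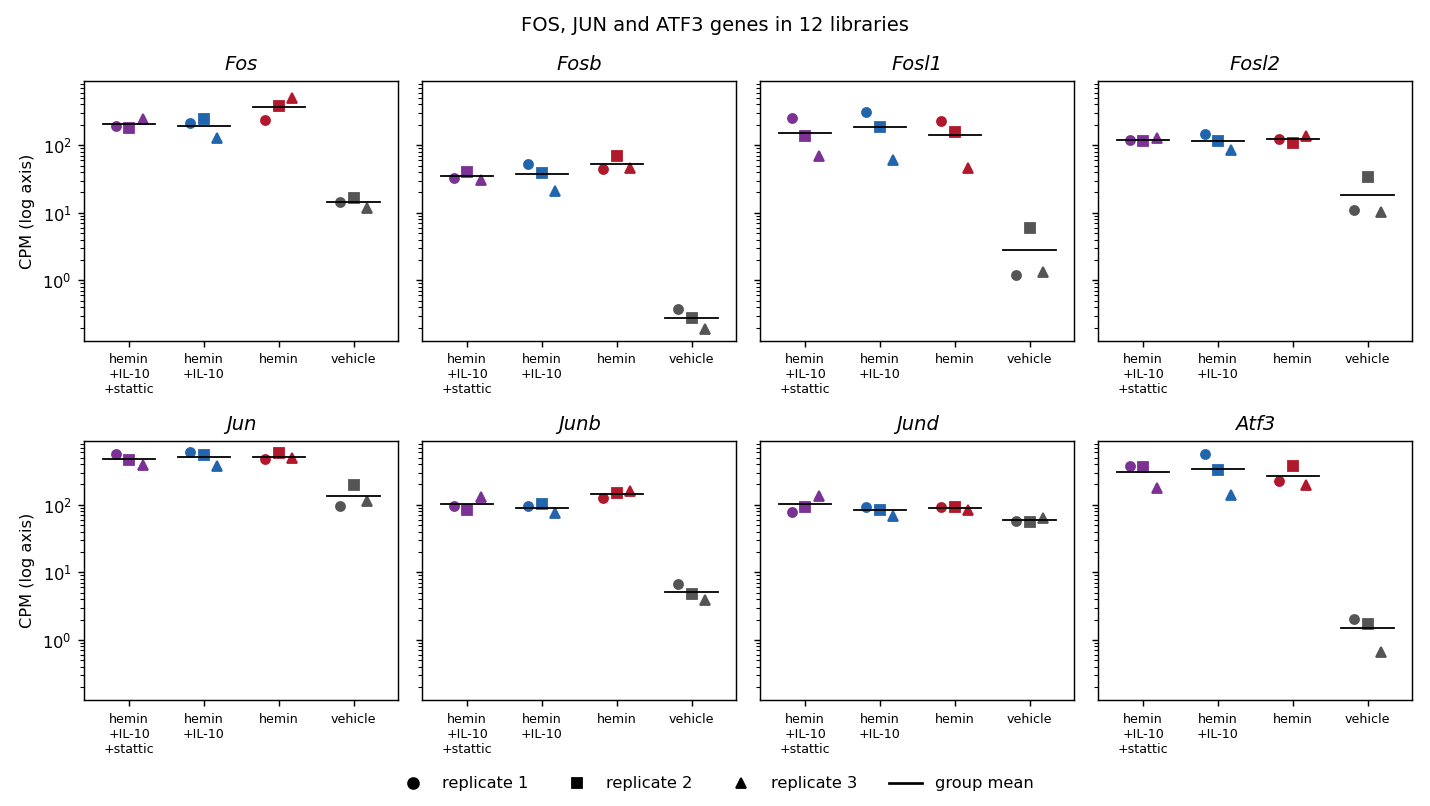
CPM of the 8 AP-1 genes in each of the 12 libraries on a log axis, by treatment; symbols give the replicate number from the labels and bars the mean of 3 libraries. All 9 libraries with hemin lie above the 3 vehicle libraries for every gene, with the smallest gap for Jund. Libraries with hemin alone lay above vehicle without overlap for 25.6% of tested genes. This share was 24.9% with hemin and IL-10 and 21.5% with stattic as well. The share for all 9 libraries against vehicle was not counted. Fosl1 is lowest in replicate 3 of each hemin-treated group.

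Some markers of other cells differed with hemin, and their counts are set beside the 11.7% higher and 9.15% lower of all tested genes. Of 13 tested microglia and macrophage markers, 4 rose (Cd68, Ctss, Itgam and Tmem119) and none fell, and their summed level was 252, 121 and 87.9 CPM in hemin and 56.7, 64.4 and 29.5 CPM in vehicle. Of 7 tested fibroblast and vascular markers, 4 rose (Pecam1, Dcn, Col1a2 and Col1a1), with sums of 179, 53.8 and 64.7 CPM in hemin and 20.5, 9.69 and 6.19 CPM in vehicle; Cldn5, an endothelial marker named after its values were seen, was at 0 in 6 of the 12 libraries. Of 7 neuron markers 2 rose (Nefl and Snap25), with sums of 829 to 1126 CPM in hemin and 845 to 1089 CPM in vehicle. Of 8 astrocyte markers 1 fell (Slc1a2), a share close to that of all genes, and of 5 tested markers of myelinating oligodendrocytes none passed, at 303 to 1715 CPM in hemin and 2211 to 6190 CPM in vehicle. Of 8 progenitor markers 3 fell (Olig2, Gpr17 and Sox10). These counts moved when single libraries were left out: 2 to 6 microglial markers, 2 to 5 fibroblast and vascular markers, 1 or 2 neuron markers and 1 to 5 progenitor markers passed, while 0 to 2 astrocyte markers did. The lowest microglial count came from leaving out replicate 1 of hemin or replicate 2 or 3 of vehicle, the lowest vascular count from any vehicle library, and the lowest progenitor count from hemin replicate 1 or 2 or vehicle replicate 1 or 3. The part of other cells in the member results was not tested.

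With IL-10 added to hemin, no member passed the test, and 0% of all tested genes did. The same edgeR test gave 337 genes, 2.41%, at an unadjusted p under 0.05, DESeq2 called 3 genes, none of them a member, and limma on log2 FPKM called 0. Fos and Junb were the members below an unadjusted p of 0.05. The question here is whether IL-10 alters the response to heme; Fos and Junb are known STAT3 targets in other cell types.

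Fos had 213, 244 and 127 CPM in hemin with IL-10, against the 237, 377 and 503 CPM in hemin given above. Same-numbered libraries had ratios of 0.899, 0.646 and 0.252, so each IL-10 library lay below its hemin counterpart, while the groups overlapped. Junb and Jund were also lower in each pair, Jund with ratios of 0.998, 0.910 and 0.825. The share of all tested genes that were lower in each pair was not counted. The log2 fold change was -0.94 (CI -1.61 to -0.27; unadjusted p = 0.00993, edgeR quasi-likelihood adjusted p = 0.999). It was -0.66 to -1.17 when single libraries were left out.

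Junb had 95.1, 102 and 74.6 CPM in hemin with IL-10 and 125, 150 and 158 CPM in hemin. All 3 IL-10 libraries lay below all 3 hemin libraries, as they did for 5.08% of tested genes. Ratios of same-numbered libraries were 0.760, 0.677 and 0.473. The log2 fold change was -0.67 (CI -1.21 to -0.14; unadjusted p = 0.0170, edgeR adjusted p = 0.999), which leaves both a small difference and a fall by more than 2-fold within the interval.

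For the other 6 members the groups overlapped. Fosb had 52.3, 38.7 and 21.3 CPM in hemin with IL-10 and 44.0, 70.2 and 45.4 CPM in hemin, a log2 fold change of -0.51 (CI -1.19 to 0.18). Fosl1 had 311, 184 and 59.9 CPM in hemin with IL-10, and its ratios to same-numbered hemin libraries of 1.39, 1.19 and 1.30 were all above 1, but the log2 fold change of 0.38 had a CI of -1.20 to 1.97. Atf3 had 558, 328 and 139 CPM in hemin with IL-10, with ratios of 2.50, 0.872 and 0.716. Only replicate 1 of Atf3 was higher than its hemin counterpart, and the log2 fold change was 0.37 (CI -0.68 to 1.42). These intervals come from the fit without pairing. With the replicate number as a block, Fosl1 was at 0.38 (CI -0.55 to 1.30) and Atf3 at 0.20 (CI -0.46 to 0.86). Fosb was then at -0.55 (CI -1.13 to 0.03). Fosl2 had 146, 117 and 83.7 CPM, Jun 595, 538 and 373 CPM and Jund 94.0, 85 and 67.9 CPM in hemin with IL-10. Their log2 fold changes were -0.10 (CI -0.93 to 0.74), -0.04 (CI -0.68 to 0.60) and -0.13 (CI -0.62 to 0.36), and these intervals do not show that the levels were alike. The summed microglial markers were 95.4, 64.0 and 45.7 CPM in hemin with IL-10, below the 252, 121 and 87.9 CPM of same-numbered hemin libraries; none of these markers passed the test, and their part in the member values was not tested.

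Stattic added to hemin and IL-10 gave no call among the members either, and 0% among all tested genes; 523 genes, 3.74%, had an unadjusted edgeR p under 0.05, none of them a member, and DESeq2 and limma called 0. Fos had 192, 182 and 243 CPM with stattic and 213, 244 and 127 CPM in hemin with IL-10, a log2 fold change of 0.08 (CI -0.58 to 0.74). Junb had 94.8, 83.0 and 130 CPM with stattic and 95.1, 102 and 74.6 CPM in hemin with IL-10, a log2 fold change of 0.18 (CI -0.35 to 0.71). In both genes replicate 3 was the highest library with stattic and the lowest without it, and stattic replicate 3 is the library with the steepest lean towards short transcripts; with a length correction the values were -0.068 for Fos and -0.045 for Junb. All groups overlapped. Fosb had 32.9, 40.4 and 30.4 CPM and Fosl1 255, 135 and 68.2 CPM with stattic. Fosl2 had 117, 115 and 129 CPM and Jun 572, 462 and 385 CPM. Jund had 78.5, 92.7 and 136 CPM and Atf3 369, 366 and 177 CPM. The log2 fold changes of these 6 against hemin with IL-10 were between -0.28 for Fosl1 and 0.32 for Jund. The widest interval, that of Fosl1, was -1.86 to 1.31. These intervals come from the fit without pairing. With the replicate number as a block, Fosl1 was at -0.17 (CI -1.09 to 0.75) and Jund at 0.30 (CI -0.22 to 0.82). Fos was then at 0.08 (CI -0.60 to 0.77) and Junb at 0.18 (CI -0.38 to 0.74).

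Set against hemin alone, the group with IL-10 and stattic had no called member and 0% of tested genes called (481 genes, 3.44%, at an unadjusted edgeR p under 0.05; 1 gene in DESeq2, not a member; 0 in limma). Fos was the member below that unadjusted level, at -0.86 log2 units (CI -1.53 to -0.19, unadjusted p = 0.0161, edgeR adjusted p = 1.00). Fosb, at -0.62 (CI -1.31 to 0.06), was lower in all 3 stattic libraries than in all 3 hemin libraries, as were 2.25% of tested genes. With the replicate number as a block, Fosb was below that unadjusted level as well (-0.61, CI -1.19 to -0.04, unadjusted p = 0.0380, edgeR adjusted p = 0.906). Junb differed by -0.49 (CI -1.02 to 0.04). Fosl1 differed by 0.11 (CI -1.47 to 1.69), by 0.20 with the block (CI -0.72 to 1.13), and by 0.96 without both short-leaning libraries. This comparison shares its hemin libraries with the previous IL-10 comparison, so the lower Fos and Junb values in both are not independent.

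**Figure D2:**
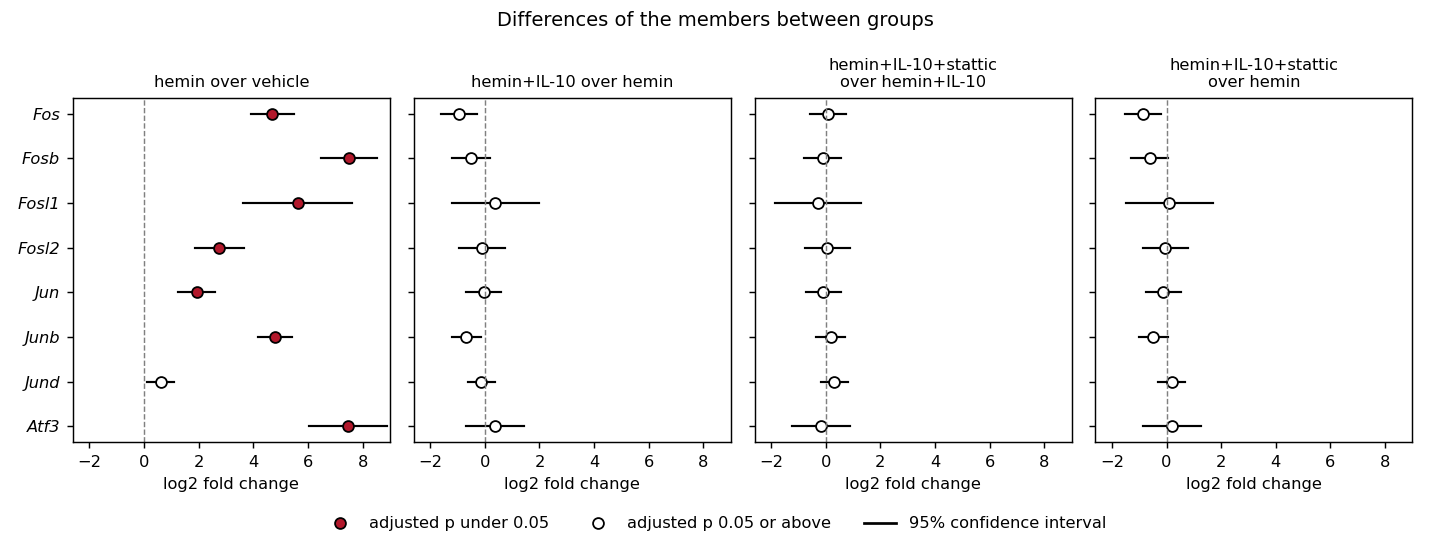
Log2 fold changes of the 8 AP-1 genes with 95% confidence intervals in 4 comparisons, from edgeR's quasi-likelihood fit to all 12 libraries; filled points passed an adjusted p of 0.05. Filled points appear for 7 genes with hemin over vehicle and for none in the comparisons among hemin-treated groups, where the intervals of Fosl1 are the widest.

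Both groups with IL-10 were also set against the same vehicle libraries. With hemin and IL-10, 7 members rose, against 21% of tested genes called and 12.1% called higher, and Jund differed by 0.48 log2 units (SE 0.23, CI -0.01 to 0.98, edgeR adjusted p = 0.147). With stattic as well, all 8 passed, against 24.9% called and 14.7% higher, and Jund differed by 0.80 (SE 0.23, edgeR adjusted p = 0.0243). Jund's call with stattic was lost without any single vehicle library (adjusted p = 0.0835, 0.0814 and 0.0558 without replicates 1, 2 and 3), with library totals in place of scaling factors (0.0582), with FPKM values in limma (0.0629 and 0.0607) and with the compared groups alone (0.0790). With hemin and IL-10 the call was gained without stattic replicate 3 (0.0428), without both short-leaning libraries (0.0437) and with the compared groups alone (0.0433). The other 7 members kept their calls under each of the 23 alternatives. Fos had log2 fold changes over vehicle of 3.84 (SE 0.34) with stattic and 3.76 (SE 0.34) with hemin and IL-10, and Atf3 had 7.67 (SE 0.67) with stattic and 7.84 (SE 0.67) with hemin and IL-10.

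Levels can be compared between genes on the FPKM scale, which corrects for both transcript length and sequencing depth. In hemin the order of mean FPKM was Fos (189 ± 74.6, SD, n = 3), Jun (168 ± 18.3), Atf3 (142 ± 49.0), Fosl1 (88.5 ± 54.5), Junb (84.4 ± 12.6), Jund (32.3 ± 1.08), Fosl2 (20.2 ± 2.90) and Fosb (14.8 ± 3.85). Neighbours among the top 5 overlapped in range, as did Fosl2 and Fosb, while Junb, Jund and Fosl2 were apart from each other. In vehicle the order was Jun (47.8 ± 19.0), Jund (22.9 ± 2.03), Fos (7.79 ± 1.32), Junb (3.27 ± 0.924), Fosl2 (3.20 ± 2.33), Fosl1 (1.96 ± 1.88), Atf3 (0.863 ± 0.420) and Fosb (0.0867 ± 0.0252). There Jun, Jund, Fos and Junb were apart in range, Junb, Fosl2, Fosl1 and Atf3 overlapped with their neighbours, and Fosb was apart. Atf3 thus stood at rank 3 of 8 in hemin and at rank 7 in vehicle. It stood at the top with stattic (155 ± 68.2) and with hemin and IL-10 (179 ± 105), where its range overlapped that of Jun, the next gene.

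The 4 FOS genes together had 276, 207 and 155 FPKM with hemin, IL-10 and stattic, 325, 268 and 123 FPKM with hemin and IL-10, 287, 318 and 332 FPKM with hemin, and 10.6, 19.2 and 9.27 FPKM in vehicle. The 3 JUN genes had 258, 231 and 199 FPKM with stattic, 268, 263 and 191 FPKM with hemin and IL-10, 253, 304 and 296 FPKM with hemin, and 60.1, 93.8 and 68.0 FPKM in vehicle. The FOS sum over the JUN sum was 1.07, 0.896 and 0.779 with stattic, 1.21, 1.02 and 0.642 with hemin and IL-10, 1.13, 1.05 and 1.12 with hemin, and 0.176, 0.205 and 0.136 in vehicle. In vehicle JUN transcripts thus outnumbered FOS transcripts in each library, while in hemin FOS transcripts were slightly above JUN transcripts in each. With IL-10, the FOS sum was below the JUN sum in replicates 2 and 3 with stattic and in replicate 3 without it. The FPKM values are as deposited, without the TMM scaling factors used for CPM, which were 0.81 in stattic replicate 3 and 1.08 to 1.09 in vehicle. Sums compared between groups therefore depend on the scale, unlike ratios within a library. Mean Fos, for example, was 93.9 FPKM with stattic and 96.0 FPKM with hemin and IL-10, but 205 and 194 CPM. All these values are transcript levels, which do not give the amounts of the proteins or of their pairs.

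Within the JUN genes, Jun held a mean of 58.9% of the FPKM in hemin and 63.1% in vehicle. Junb held 29.6% in hemin and 4.67% in vehicle, and Jund 11.4% in hemin and 32.2% in vehicle. Without overlap between libraries, Junb's share was thus larger and Jund's smaller in hemin. In hemin with IL-10 Junb held 19.6% to 23.0%, below its 28.1% to 32.7% in hemin. Within the FOS genes, Fos held 40.5%, 58.3% and 79.8% in hemin replicates 1, 2 and 3, and Fosl1 held 48.4%, 30.2% and 9.23%. The make-up of the FOS sum therefore differed between hemin libraries more than its size. In vehicle Fos held 47.5% to 73.0% and Fosl1 7.83% to 21.5%. Fosl2 held 5.49% to 6.99% in hemin and 18.1% to 30.6% in vehicle, and Fosb 3.95% to 6.03% in hemin and 0.468% to 1.04% in vehicle.

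**Figure D3:**
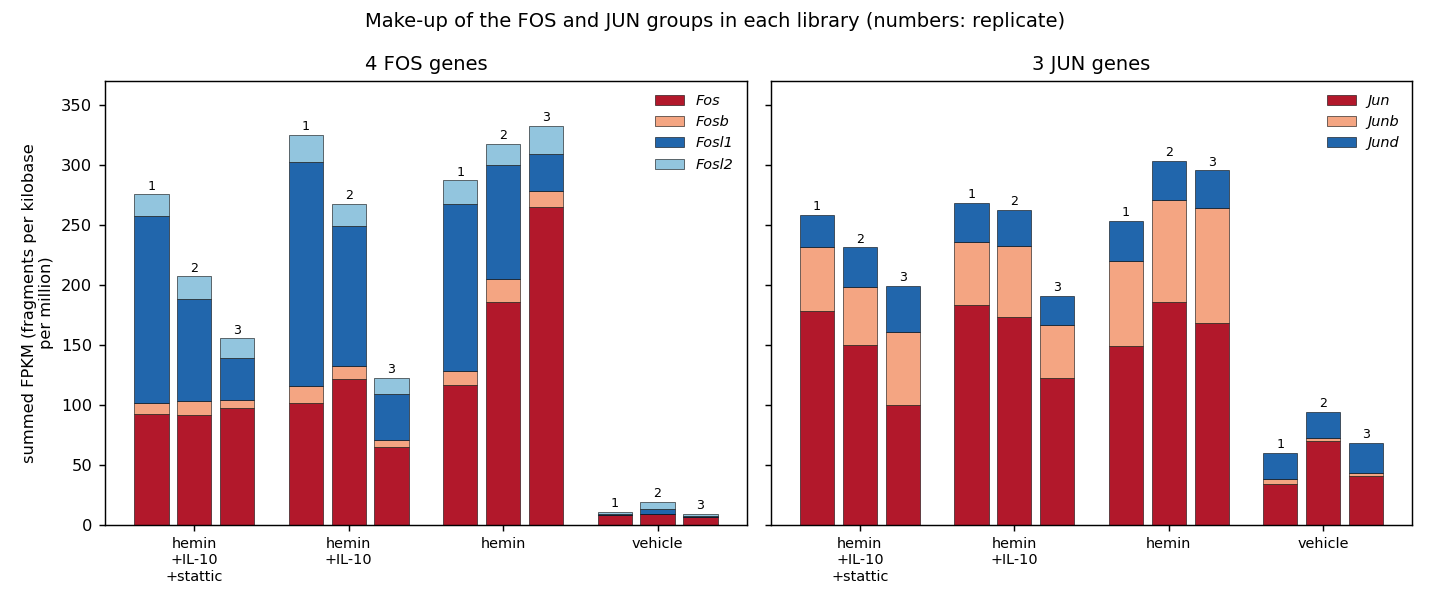
Summed FPKM of the 4 FOS genes and of the 3 JUN genes in each library, stacked by gene and grouped by treatment, with the replicate number above each bar. FOS bars are at 287 to 332 FPKM in hemin and 9.27 to 19.2 FPKM in vehicle, and the Fosl1 section is smallest in replicate 3 of every hemin-treated group.

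Fosl1 was lowest in the replicate 3 library of each hemin-treated group: 68.2 CPM with stattic, 59.9 CPM with hemin and IL-10, and 46.2 CPM with hemin. Ccdc85b, its opposite-strand neighbour, was lowest in the same libraries, at 78.1 CPM with stattic, 58.6 CPM with hemin and IL-10, and 59.4 CPM with hemin. Atf3 was also lowest there, at 177 CPM with stattic, 139 CPM with hemin and IL-10, and 194 CPM with hemin. Fos was lowest in replicate 3 with hemin and IL-10 (127 CPM), but highest in replicate 3 with stattic (243 CPM) and with hemin (503 CPM). The labels do not say what a shared replicate number means. Over the 9 libraries with hemin, the standardised log2 CPM of a member correlated with the mean of the other 7 at a Pearson r of 0.85 for Fosb, 0.70 for Fosl2 and 0.69 for Jun, but 0.36 for Fosl1 and 0.27 for Jund. Over all 12 libraries these r values were 0.75 for Jund and 0.95 to 0.99 for the rest. The points share library, depth and, over all 12, the step between vehicle and hemin, so these are descriptions.

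The genes whose log2 CPM was most like the mean of the standardised members over the 12 libraries were Baiap2 (r = 0.992), Plk3 (0.991), Ier2 (0.989), Zfp36 (0.989), Chac1 (0.986) and Coq10b (0.986), of 11049 genes compared. Within the 9 libraries with hemin, where the vehicle step plays no part, they were Tent5c (0.941), Zfp36 (0.929), Arc (0.926), Gadd45b (0.914), Abat (0.90) and Fam107b (0.893). Zfp36, which encodes an RNA-binding protein that speeds the decay of messages rich in adenine and uridine, was in both groups of 6. Ier2, Plk3, Arc and Gadd45b are known as early or stress response genes. The named genes are the highest of 11049 r values and no p-value was computed. Among so many genes, high values over 9 libraries can arise by chance.

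Proteins that pair with AP-1 members or share their zipper fold were followed in a list of 16, of which 15 were tested. With hemin 8 rose and 1 fell, against 11.7% of tested genes higher and 9.15% lower, and the list's median log2 fold change was 1.81. Maff, a small MAF protein without an activation domain, averaged 100 ± 6.53 CPM in hemin and 5.78 ± 1.31 CPM in vehicle (SD, n = 3 each; log2 fold change 4.12, SE 0.30). Cebpb, a zipper factor of inflammation, averaged 34.9 ± 9.18 CPM in hemin and 1.14 ± 0.769 CPM in vehicle (log2 fold change 4.92, SE 0.60). Mafk, another small MAF, and Ddit3, the stress factor CHOP, rose by log2 fold changes of 2.68 and 3.55. Atf7, a relative of ATF2 that pairs with JUN, was the gene that fell, at -0.92 (SE 0.27, edgeR adjusted p = 0.0311), and this call was lost without any single hemin library, without IL-10 replicate 2, or without vehicle replicate 1 or 2. Atf7 and the genes named below as exceptions were named after their values were seen.

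Of 22 tested kinases and factors that act on AP-1 genes, 2 rose and 2 fell, shares near the 11.7% higher and 9.15% lower of all tested genes, and the median log2 fold change was -0.15. Mef2a, a factor that binds the Jun promoter, averaged 136 ± 36.4 CPM in hemin and 69.3 ± 4.42 CPM in vehicle (log2 fold change 0.98, edgeR adjusted p = 0.0255). Mapk8, which encodes the JUN kinase JNK1, averaged 90.1 ± 19.5 CPM in hemin and 48.7 ± 4.27 CPM in vehicle (0.89, adjusted p = 0.0311 by edgeR). Map2k6, a kinase of the p38 pathway, fell to 10.4 ± 0.661 CPM in hemin, against 31.4 ± 8.77 CPM in vehicle (-1.60, edgeR adjusted p = 0.0117). Mapk14, which encodes p38 alpha, fell to 38.9 ± 9.33 CPM in hemin, against 72.0 ± 5.51 CPM in vehicle (-0.89, edgeR adjusted p = 0.0433). The counts were small and fragile: no gene of the list passed as higher without hemin replicate 2 or without any single vehicle library, and 1 passed without hemin replicate 3 or IL-10 replicate 2. As lower, 1 passed without hemin replicate 2 or 3, IL-10 replicate 2 or any vehicle library, and 3 without stattic replicate 3. Messages of kinases do not report their activity, which is set by phosphorylation.

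Of 21 tested genes with known AP-1 sites, 14 rose with hemin and none fell. Of all tested genes, 11.7% were called higher and 9.15% lower. The list's median log2 fold change was 3.75, against 0.03 over all tested genes. The list was chosen with earlier results of these data known. Spp1, which encodes the secreted protein osteopontin, averaged 127 ± 26.5 CPM in hemin and 11.4 ± 2.21 CPM in vehicle (log2 fold change 3.48, SE 0.29). Hmox1, heme oxygenase, which breaks down heme and is also a textbook target of NRF2 and BACH1, averaged 5668 ± 2904 CPM in hemin and 39.0 ± 15.3 CPM in vehicle (7.18, SE 0.83). Plau, which encodes urokinase, rose by 3.67 (SE 0.43). When single libraries were left out, 11 to 15 of the list passed. Vim, Ccnd1, Cd44 and Timp1 also carry known AP-1 sites, and their log2 fold changes of 0.32, -0.07, -0.11 and 0.60 did not pass the test.

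Other immediate early genes rose with the members: 13 of 15 tested, none lower, against 11.7% of tested genes higher and 9.15% lower. Their median log2 fold change was 3.42, against 0.03 over all tested genes. This list too was chosen with earlier results of these data known. Ier2 averaged 111 ± 22.3 CPM in hemin and 12.6 ± 2.80 CPM in vehicle (log2 fold change 3.14, SE 0.26), and Nr4a2, an orphan nuclear receptor, 23.1 ± 2.26 CPM in hemin and 3.90 ± 0.532 CPM in vehicle (2.56, SE 0.25). Egr3 and Klf4, both zinc finger factors, rose by 5.52 and 5.35. The exceptions were Egr2, at 67.4 ± 17.0 CPM in hemin and 78.6 ± 6.03 CPM in vehicle (-0.22, SE 0.24), and Myc, at 91.0 ± 14.9 CPM in hemin and 78.9 ± 28.1 CPM in vehicle (0.20, SE 0.27). Leaving out single libraries gave 10 to 13 genes higher. No gene of these 4 lists passed the test in any comparison among the 3 hemin-treated groups; with IL-10 over hemin the medians were 0.14 for the partners, 0.11 for the upstream list, 0.18 for the genes with AP-1 sites and -0.40 for the immediate early genes, against -0.01 over all tested genes.

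**Figure D4:**
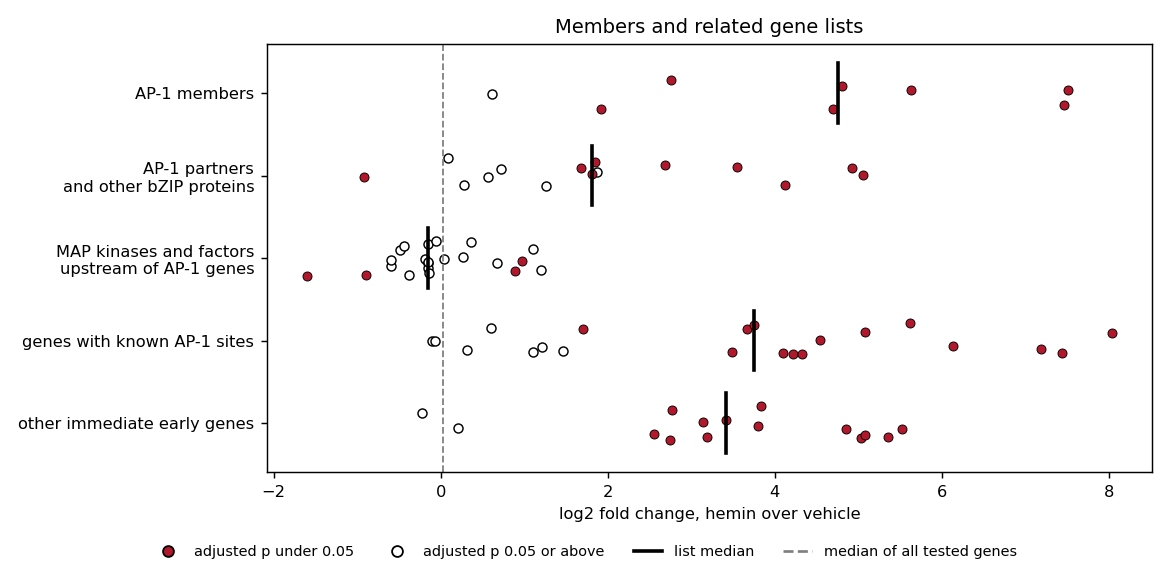
Log2 fold changes of hemin over vehicle for the 8 AP-1 genes and 4 related lists, 1 point per tested gene (filled where the edgeR adjusted p was under 0.05), with the list medians and, dashed, the median of all tested genes. Medians are 4.75 for the members, 1.81 for partners, -0.15 for upstream kinases and factors, 3.75 for genes with AP-1 sites and 3.42 for other immediate early genes.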

How the data were processed

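Libraries of total RNA carried dUTP and were sequenced as DNA nanoballs, per the labels' protocols. RSEM, Bowtie, Bowtie2, HISAT, TopHat, StringTie, Cufflinks and CASAVA are named in the submitters' processing notes, without versions or roles. The sources used here name no genome build. Per the file headers, the authors deposited an expected count, an FPKM value and a transcript length for each gene and library. The deposited expected counts of the 8 members were whole numbers in every library. A gene absent from a library's list was taken as 0.

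Expected counts were rounded to whole numbers, filtered with filterByExpr, scaled by TMM factors and fitted with edgeR 4.0.16 (R 4.3.3; robust quasi-likelihood, all 12 libraries, 1 mean per group, no block). The script was tested on simulated data. Benjamini-Hochberg adjustment ran over 13967 tested genes, and an adjusted p under 0.05 was called. CPM values use the TMM-scaled library sizes. The alternatives were DESeq2 1.42.0, limma 3.58.1 on log2(FPKM + 1) and log2(FPKM + 0.1), other scalings, no filter, only the compared groups, a length correction, a replicate block, leaving out each library, and leaving out the 2 libraries with the steepest length trend. At library totals of 9404448 to 10266653, Fosb and Atf3 rest on few reads in vehicle. The largest SE among the members with hemin against vehicle was nonetheless that of Fosl1 (0.91), against 0.66 for Atf3 and 0.47 for Fosb.

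The members and lists were chosen with earlier results of these data known. All 8 members are named. From each list up to 4 genes with the smallest adjusted p in hemin against vehicle are named, and by likeness 6 genes over 12 libraries and 6 over the 9 with hemin, among genes of at least 5 CPM. Of the genes this rule took, 1 is not reported here. The element TGACNTCA was chosen after the sequences were seen, and list counts under the alternatives were added after seeing the data. Replicate numbers come from the labels. The correlations of the deviations of same-numbered libraries were 0.37, 0.17 and 0.61 for IL-10 added to hemin. They were 0.35, 0.39 and 0.17 for IL-10 plus stattic added to hemin. For stattic added to hemin and IL-10 they were 0.64, -0.046 and 0.48, with the low value in replicate 2. The numbers were taken to pair the libraries in the first 2 comparisons and not in the others. Pairing in these 2 would imply pairing between the stattic group and the group with hemin and IL-10 as well, which the replicate 2 value did not show. Each pair of libraries in a group differed by more than counting noise, with a chi-square of 14.8 to 181 per degree of freedom.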

Additional observations from a re-analysis of the deposited data

How the results depend on the processing

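Of 48 member differences (8 genes in 6 comparisons), 22 passed the test. Over 23 alternatives, 499 of 506 values of these 22 kept their direction and call, and the 7 that lost the call were those of Jund with stattic against vehicle. The counts of called members stayed within 1.5 times throughout. The replicate block changed no member's call; with it, Fos in hemin with IL-10 against hemin was -0.92 (edgeR adjusted p = 0.864) and Junb -0.68. The number of all genes called with stattic against vehicle was 1650 with only the compared groups, against 3472; the cause was not tested. In limma, the FPKM pseudocount of 1 gave Fosb 3.83 with hemin against vehicle, against 7.51 in edgeR, since a constant added to a value near 0 lowers the fold.

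Values that turned sign were all uncalled. With stattic against hemin and IL-10, library totals gave -0.029 for Fos and -0.037 for Fosl2; FPKM values gave -0.015 and -0.014 for Fosl2 with pseudocounts of 1 and 0.1; leaving out both short-leaning libraries gave -0.069 for Fos, 0.060 for Fosl1, -0.007 for Fosl2, 0.029 for Jun, -0.037 for Junb and 0.086 for Atf3; the length correction gave -0.068 for Fos and -0.045 for Junb, and with the replicate block -0.056 and -0.037. With stattic against hemin, the length correction gave 0.13 for Fosl2, and with the block 0.14 for Fosl2 and -0.018 for Atf3; leaving out both libraries gave -0.034 for Jund. The cause was not tested.

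Leaving out single libraries gave these ranges. With IL-10 against hemin they were -0.21 to 0.89 for Fosl1, -0.30 to 0.090 for Fosl2, -0.18 to 0.14 for Jun and -0.18 to 0.75 for Atf3. With stattic against hemin and IL-10 they were -0.15 to 0.25 for Fos, -0.40 to 0.20 for Fosb, -0.87 to 0.32 for Fosl1, -0.13 to 0.26 for Fosl2, -0.26 to 0.055 for Jun, -0.037 to 0.32 for Junb and -0.55 to 0.38 for Atf3. With stattic against hemin they were -0.48 to 0.61 for Fosl1, -0.13 to 0.040 for Fosl2, -0.29 to 0.013 for Jun and -0.060 to 0.35 for Jund.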
